A study of Mus musculus with 10 samples.

Results

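Small nucleolar RNAs (snoRNAs) were taken as the rows of the deposited gene count table whose name starts with Snord (box C/D class) or Snora (box H/ACA class). They are 121 of the 46959 genes in the table, 82 of class C/D and 39 of class H/ACA. A further 1346 rows carry the type snoRNA in the GENCODE M21 annotation under other names and are not described here. The table covers 10 RNA-seq libraries of mouse cells, made from 500 ng of total RNA with a stranded total RNA kit. The 6 splenic libraries are spleen cells freed of CD43-bearing cells and kept in culture for 2 days with lipopolysaccharide (LPS) at 5 µg/ml, in medium holding 10% FCS. LPS comes from bacterial walls and makes B cells divide and secrete antibody. They fall into wild-type (WT) cultures with LPS (n = 2, called WT LPS), WT cultures that also had 200 ng/ml SAHA from the start (n = 2, WT LPS+SAHA) and cultures from KOKI mice (n = 2, KOKI LPS). The names of both SAHA libraries hold the tag D3, the protocol gives 2 days for all cultures, and what the tag stands for is not stated, so an equal culture time with and without SAHA is not certain. SAHA (vorinostat) inhibits histone deacetylases. The WT mice are given as B6 animals.

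The labels do not say what KOKI stands for. The sample names and the design text give LPS alone for the KOKI cultures, while their treatment field lists SAHA as well, so the state of SAHA in these 2 libraries is uncertain. The 4 femoral libraries were extracted directly after recovery of cells labelled as femoral B cells, each from a pool of 3 mice. All 4 lack RAG2, which antigen receptor rearrangement needs. The controls (n = 2) also lack gamma c, a chain shared by several interleukin receptors, as does 1 of the KOKI pools, while the other KOKI pool lacks RAG2 alone. In the sentences below, paired femoral KOKI values give the pool lacking RAG2 and gamma c first. Per the design text each of the 3 femoral genotypes had 2 pools, and 2, 1 and 1 were analysed here.

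Box C/D snoRNAs bind fibrillarin, Nop56, Nop58 and Snu13 and direct methylation of the ribose of ribosomal RNA by base pairing with it. Box H/ACA snoRNAs bind dyskerin (Dkc1), Nop10, Nhp2 and Gar1 and direct the change of uridine to pseudouridine. A few members are instead needed to cut or fold the ribosomal RNA precursor, among them Snora73 (U17) and Snord118 (U8). Most vertebrate snoRNAs are trimmed from introns of host genes, often genes of ribosomal proteins, and a minority have promoters of their own.

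The sequences of the members on which the results below turn are shown first, because their boxes define the classes and because replicate differences are given by length below. They are the GENCODE M21 transcripts with the coordinates of the deposited rows, on the strand of the gene, 5′ to 3′, in mm10. Capitals mark the box C core TGATGA in the first 20 bases and the box D core CTGA in the last 20 bases of C/D members, and the ACA that stands 3 bases from the end of H/ACA members.
Snora73b: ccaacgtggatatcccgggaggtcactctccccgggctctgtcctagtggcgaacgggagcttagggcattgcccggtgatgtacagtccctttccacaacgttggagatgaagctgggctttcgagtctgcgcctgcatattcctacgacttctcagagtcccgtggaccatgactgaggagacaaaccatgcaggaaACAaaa
Snora73a: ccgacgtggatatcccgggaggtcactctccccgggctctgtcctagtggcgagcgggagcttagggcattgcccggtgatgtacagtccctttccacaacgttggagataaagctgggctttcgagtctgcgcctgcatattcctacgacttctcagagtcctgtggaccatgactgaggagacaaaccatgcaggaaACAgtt
Snord17: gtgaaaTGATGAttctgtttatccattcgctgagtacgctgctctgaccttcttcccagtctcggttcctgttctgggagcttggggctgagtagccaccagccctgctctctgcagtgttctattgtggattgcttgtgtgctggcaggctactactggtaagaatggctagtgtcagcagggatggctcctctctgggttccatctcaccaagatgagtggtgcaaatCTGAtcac
Snord15a: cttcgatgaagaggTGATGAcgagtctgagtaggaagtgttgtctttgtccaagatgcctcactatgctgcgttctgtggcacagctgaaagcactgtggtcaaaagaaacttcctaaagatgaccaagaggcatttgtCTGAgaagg
Snord118: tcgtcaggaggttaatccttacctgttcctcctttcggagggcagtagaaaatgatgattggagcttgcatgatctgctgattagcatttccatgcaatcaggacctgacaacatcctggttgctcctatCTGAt
Snord104: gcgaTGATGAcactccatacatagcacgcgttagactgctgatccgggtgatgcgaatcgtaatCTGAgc
Snord83b: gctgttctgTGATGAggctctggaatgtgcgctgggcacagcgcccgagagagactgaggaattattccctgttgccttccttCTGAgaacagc
Snord49a: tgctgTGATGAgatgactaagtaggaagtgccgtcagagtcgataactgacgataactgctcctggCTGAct
Snora23: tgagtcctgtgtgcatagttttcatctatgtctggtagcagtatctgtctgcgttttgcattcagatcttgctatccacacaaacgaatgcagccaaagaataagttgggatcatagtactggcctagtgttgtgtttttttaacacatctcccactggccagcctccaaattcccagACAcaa
Snora78: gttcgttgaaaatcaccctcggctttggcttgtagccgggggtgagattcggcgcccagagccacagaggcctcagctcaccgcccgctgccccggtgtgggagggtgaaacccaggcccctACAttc
Snora41: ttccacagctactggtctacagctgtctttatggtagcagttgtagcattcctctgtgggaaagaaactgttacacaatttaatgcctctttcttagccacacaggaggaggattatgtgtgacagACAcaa

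Snora73b lies on the minus strand at chr4:132352322-132352526 and Snora73a on the same strand at chr4:132352775-132352979, both within the spans of Rcc1 and Snhg3. Snord17 lies on the minus strand at chr2:144265979-144266216, in Snx5. Snord15a lies on the minus strand at chr7:99482785-99482932, in Rps3. Snord118 lies on the plus strand at chr11:69073427-69073561 and Snord104 on the plus strand at chr11:106500993-106501062. Neither lies within the annotated span of another gene on its strand. Snord83b lies on the minus strand at chr15:80078498-80078591, in Rpl3. Snord49a lies on the plus strand at chr11:62603450-62603521, in 2410006H16Rik. Snora23 lies on the plus strand at chr7:110046364-110046547, in Ipo7. Snora78 lies on the minus strand at chr17:24719676-24719803, in Snhg9. Snora41 lies on the plus strand at chr1:63179004-63179135, in Eef1b2. None of these 11 rows except Snora73a shares bases with an exon of another gene on its own strand, so the 8 others within a host lie between its exons.

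Since the boxes define the classes, the shares below describe the members and are no test of the classes. TGATGA was found in the first 20 bases of 54 of 82 C/D members (65.85%), of 0 of 38 H/ACA members with a sequence, and of 0.5688% of 6856 other transcripts of 60 to 250 bases. CTGA was found in the last 20 bases of 80 C/D members (97.56%), of 4 H/ACA members (10.53%) and of 8.999% of the other transcripts. ACA followed by exactly 3 bases was found in 31 of 38 H/ACA members (81.58%), in 0 C/D members and in 1.954% of the others. Both motifs were searched on the transcript strand alone, and they do not overlap. C/D members were 64 to 238 bases long with a median of 79.5, and H/ACA members 127 to 205 with a median of 132. Snora26 is left out of these lengths and motifs, since its row is made of 3 blocks with 2347 bases that overlap Dancr on the same strand, and its counts are not those of a single snoRNA.

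By the spans in the table, 115 members lay within a host on their strand and 6 did not (Snora17, Snora26, Snora57, Snord104, Snord118 and Snord13). There were 82 different hosts. Ribosomal protein genes made up 24 of them and held 32 members, and the non-coding Snhg genes and Gas5 made up 11 and held 18.

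A count was not possible for every member. In all, 48 members were at 0 in all 10 libraries and 73 had counts. Of the 44 members covered in full by exons of another gene on the same strand, 44 were at 0. Of the 64 that no exon of another gene covered, 3 were at 0, and of the 3 covered on the opposite strand alone, 0 were. The same held across the table: 217 of 217 single-block rows covered in full on the same strand were at 0, against 30.3% of 99 rows covered in full on the opposite strand and 41.03% of 16472 rows that no other exon touched. Where the covering genes were themselves below 10 CPM, 192 of 192 rows covered on the same strand were also at 0. Reads that matched exons of more than 1 gene on a strand were therefore not counted, and strand was used. A 0 in such a row says nothing of the RNA, and 77 members could be counted in whole or in part (52 C/D and 25 H/ACA).

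This removed well-known members. Snord47, Snord78 and Snord80, which lie in the host RNA Gas5, are listed at 0 beneath an exon of Gas5. Snord22 in Snhg1, Snora74a in Snhg4 and the rows Snord14a, Snord14c, Snord14d and Snord14e are listed at 0 in the same way. Snord3 rows, which would hold the U3 snoRNA, and rows for Snord44, Snord74, Snord113, Snord114 and Snord115 are not analysed here. The 3 uncovered members at 0 were Snora35, within the serotonin receptor gene Htr2c, and Snord116l1 and Snord116l2, of a cluster known from brain and from Prader-Willi syndrome. The Snord116 rows are identical in sequence to each other, and each has 29 identical copies under other names, so that reads matching several places cannot be assigned to them.

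Near-identical copies limit 2 further pairs that have counts. Snora73a and Snora73b are identical at 198 of 205 positions (96.59%), and their counts summed over all libraries were 221 and 149441. Only 46 bases of Snora73a are free of an exon of Snhg3, so the row of Snora73a is not a measure of that copy, and its RNA and that of Snora73b cannot be told apart with confidence. Snord88a and Snord88c are identical at 94.44% of positions, and Snord88a is listed at 0 with 205 counts in Snord88c.

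Some facts of the libraries as a whole bear on what follows. Total counts ran from 18614742 to 29314068. Among B cell markers, Ms4a1 ran from 924 to 987 CPM in the splenic libraries and was at 0 in 3 of the 4 femoral ones, and Pax5 ran from 272 to 438 CPM in the splenic libraries and reached at most 0.326 in the femoral ones, where it was at 0 in 1. Cd79a ran from 298 to 422 CPM in the splenic and from 0.0426 to 0.311 in the femoral libraries, and Cd79b, the highest B cell marker of the femoral libraries, from 401 to 626 and from 8.57 to 8.94. CPM are counts scaled to a common library size after TMM. The 9 neutrophil markers ran from 11822 to 20322 CPM and the 7 erythroid markers from 8655 to 12123 in the femoral libraries, against at most 4.07 and 14.1 in the splenic ones. The femoral label of B cells therefore stands against its markers, and the femoral libraries are called by their origin alone. In such bulk RNA, fewer cells of a type and less snoRNA per cell cannot be told apart.

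At the level of single members, 2 rows held most snoRNA counts. Per length, the highest mean over the 10 libraries was that of Snora73b (3109 RPKM, CPM per kilobase of the row), followed by Snord17 (919.5 RPKM), Snora78 (349 RPKM), Snord104 (298 RPKM), Snord15a (293 RPKM), Snora23 (248 RPKM), Snord118 (236 RPKM) and Snora68 (167 RPKM). The libraries of these rows below Snord17 overlapped widely, so their order is not firm. How well rows of different length were recovered was not measured, so the order describes reads and not amounts in the cells. Snora73b made up 61.2% to 79.9% of all H/ACA counts in a library, and Snord17 26.4% to 72.7% of all C/D counts. At least 10 counts were reached by 34 to 43 C/D rows and 17 to 21 H/ACA rows in each library.

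**Figure D1:**
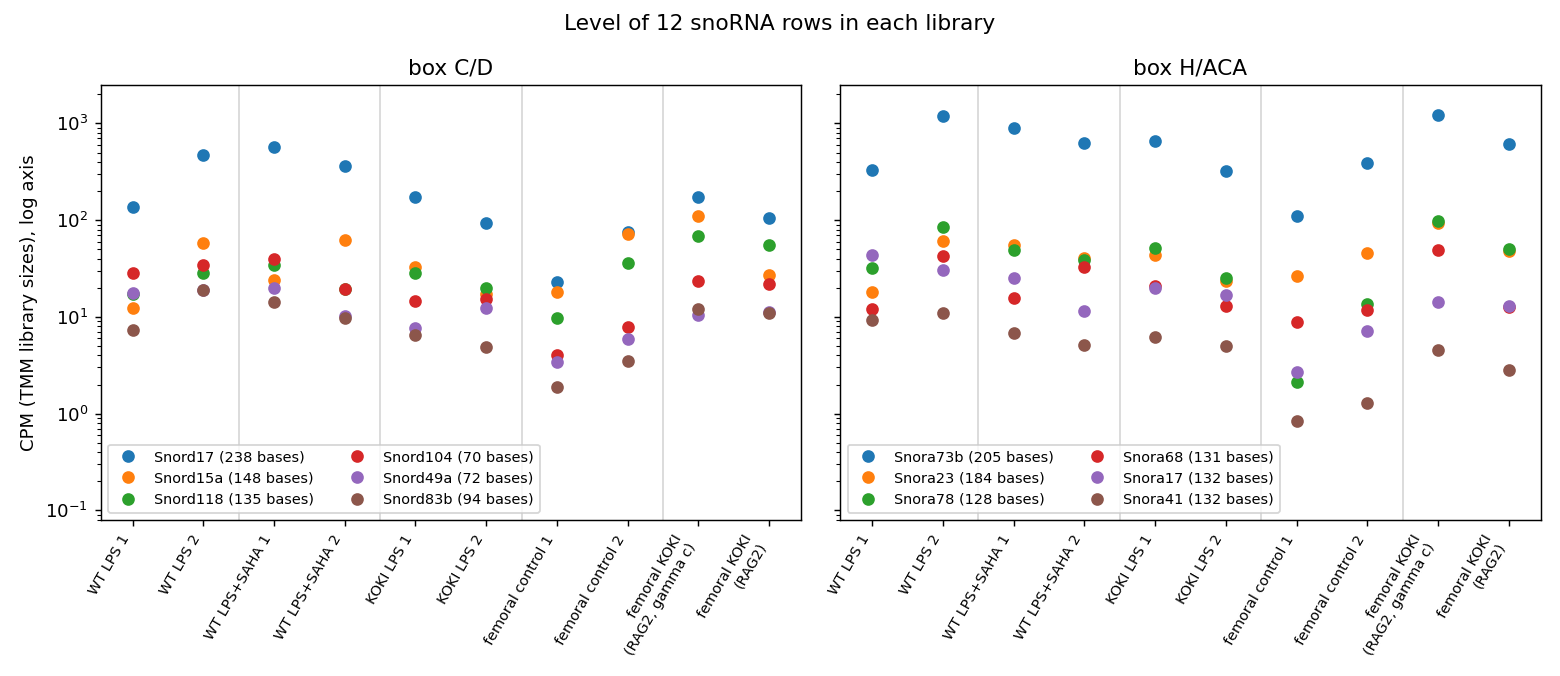
Level of 12 snoRNA rows in each of the 10 libraries, in CPM on a log axis, C/D members on the left and H/ACA members on the right, 1 point per library and row. Snora73b lies between 109 and 1229 CPM and is the highest H/ACA row in every library, and the first femoral control holds the lowest value of Snora73b, Snord17, Snora78 and Snord104.

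Snora73b, the U17 RNA needed for an early cut in the ribosomal RNA precursor, had 334 and 1188 CPM in the WT LPS libraries and 898 and 632 in WT LPS+SAHA. KOKI LPS had 653 and 322 CPM, the femoral controls 109 and 389, and the femoral KOKI pools 1229 and 620. The 2 femoral groups did not overlap, while the 3 splenic groups overlapped one another, and replicates of WT LPS differed 3.56-fold.

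Snord17, a long C/D RNA that guides methylation of the large ribosomal RNA in human cells, had 137 and 475 CPM in WT LPS, 569 and 364 in WT LPS+SAHA and 174 and 93.7 in KOKI LPS. It had 23.0 and 75.7 CPM in the femoral controls and 173 and 105 in the femoral KOKI pools. All splenic libraries lay above both femoral controls, and the SAHA libraries did not overlap those of KOKI LPS.

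Snord118, the U8 RNA that vertebrates need to mature the large ribosomal RNA, had 17.2 and 28.3 CPM in WT LPS, 34.6 and 19.2 in WT LPS+SAHA and 28.7 and 19.9 in KOKI LPS. The femoral controls had 9.65 and 36.5 CPM and the femoral KOKI pools 69.4 and 55.7. Both femoral KOKI pools lay above all 8 other libraries. Snord13 (U13), which in human cells guides an acetylation of the small ribosomal RNA, had 3.19 and 10.6 CPM in WT LPS, 8.38 and 6.35 in WT LPS+SAHA, 7.68 and 2.51 in KOKI LPS, 2.67 and 7.74 in the femoral controls and 19.4 and 12.2 in the femoral KOKI pools. It too was highest in both femoral KOKI pools.

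Snord15a had 12.3 and 58.3 CPM in WT LPS, 24.3 and 62.6 in WT LPS+SAHA, 32.4 and 17.3 in KOKI LPS, 18.1 and 72.1 in the femoral controls and 110 and 27.0 in the femoral KOKI pools. No pair of these groups was separated, since replicates differed 4.76-fold in WT LPS and 3.99-fold in the femoral controls. Snora23 had 18.3 and 61.3 CPM in WT LPS, 55.5 and 40.7 in WT LPS+SAHA, 43.9 and 23.2 in KOKI LPS, 26.2 and 45.7 in the femoral controls and 94.1 and 47.5 in the femoral KOKI pools. Here the femoral KOKI pools lay just above the controls and the splenic groups overlapped.

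Snord104, Snord49a, Snora17 and Snora57 had closer replicates in WT LPS. Snord49a, a guide of methylation of the large ribosomal RNA in human cells, had 17.5 and 18.9 CPM in WT LPS, 20.1 and 10.3 in WT LPS+SAHA, 7.68 and 12.3 in KOKI LPS, 3.46 and 5.90 in the femoral controls and 10.4 and 11.2 in the femoral KOKI pools. Both WT LPS libraries lay above both KOKI LPS libraries, and both femoral KOKI pools above both controls.

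Of the other abundant members, Snora68 ran from 8.86 CPM in the first femoral control to 48.9 in the femoral KOKI pool lacking RAG2 and gamma c, and the 2 WT LPS libraries (12.1 and 42.6) spanned most of that range. Snora21 in Rpl23 was lowest and highest in the same 2 libraries, reaching 15.6 CPM, and Snord16a in Rpl4 ran from 1.63 to 13.3 CPM between them. Snora33 in Rps12 ran from 3.14 to 10.6 CPM, again between these 2. Snora28 in the initiation factor gene Eif5 varied least of these, from 6.36 CPM in the first femoral control to 14.3 in the same KOKI pool. The lowest and the highest value of these 5 thus fell in the same 2 libraries. Snora31, also among the 10 most abundant H/ACA members, did not share the lowest. It had 3.92 CPM in the second WT LPS+SAHA library, its lowest, 8.05 in the first femoral control and 11.1 in the same KOKI pool, its highest.

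The members of Rpl13a, a ribosomal protein gene whose snoRNAs are known from work on fatty acid stress in rodent cells, were low. Snord32a had 1.32 and 4.02 CPM in WT LPS, and its 10 libraries ran from 0.320 to 4.02 CPM. Snord35a ran from 0.232 to 2.20 CPM, and Snord33 and Snord34 summed to 12 and 31 counts over all libraries. Snord33 and Snord34 are too thinly counted to show a difference.

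Summed over a class, C/D members had 326 and 751 CPM in WT LPS, 783 and 556 in WT LPS+SAHA, 351 and 220 in KOKI LPS, 86.9 and 257 in the femoral controls and 492 and 299 in the femoral KOKI pools. H/ACA members had 536 and 1518 CPM in WT LPS, 1123 and 821 in WT LPS+SAHA, 860 and 453 in KOKI LPS, 178 and 519 in the femoral controls and 1580 and 816 in the femoral KOKI pools. For both classes the femoral controls lay below the femoral KOKI pools and below WT LPS without overlap. The splenic groups overlapped except that both C/D sums of WT LPS+SAHA lay above both of KOKI LPS. Without Snord17 the C/D sums were 189 and 277 CPM in WT LPS and 177 and 127 in KOKI LPS, which did not overlap. The ratio of group means, femoral KOKI over control, was 2.30-fold for C/D and 3.44-fold for H/ACA. Without Snord17 and Snora73b the ratios were 2.09-fold and 2.74-fold. For WT LPS+SAHA over WT LPS the C/D ratio was 1.24-fold with Snord17 and 0.872-fold without it, so the direction rests on that 1 row. The sums have no test.

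**Figure D2:**
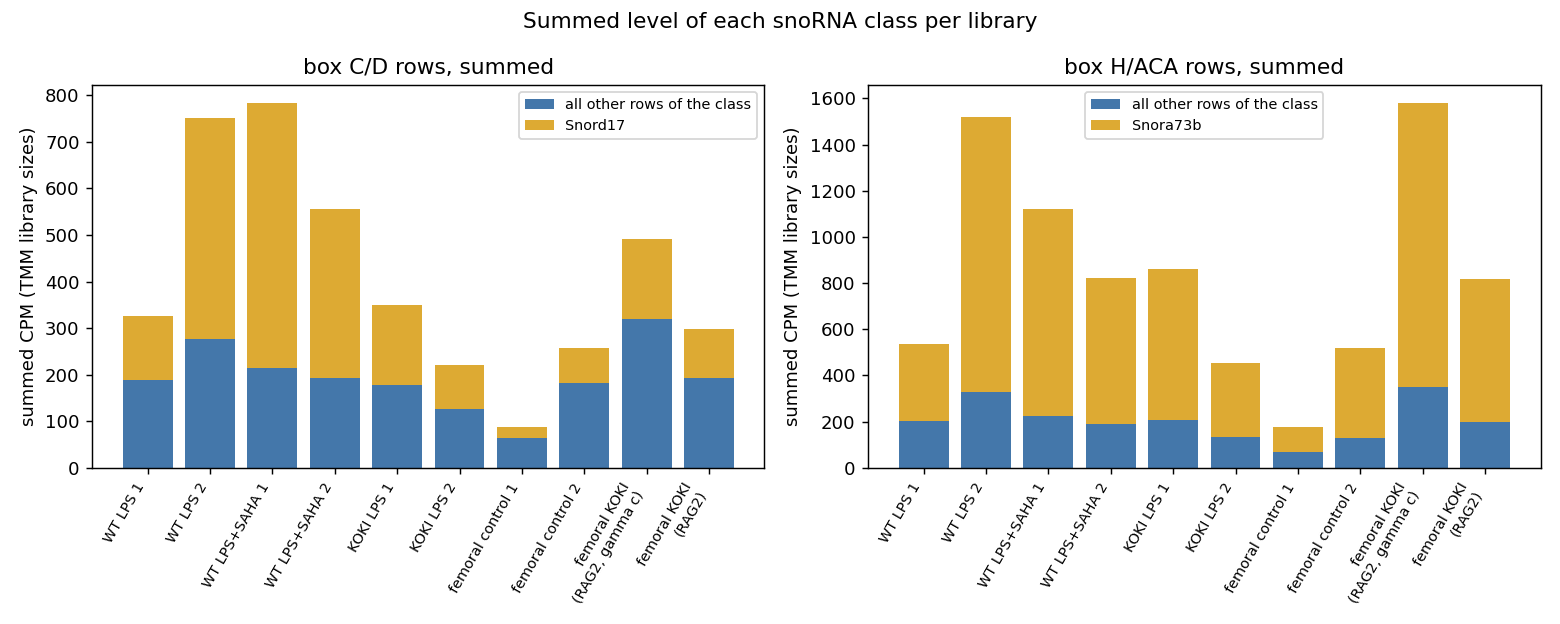
Summed CPM of all C/D rows (left) and all H/ACA rows (right) in each library, as stacked bars from 0, with the row of highest mean (Snord17 or Snora73b) in yellow and all other rows in blue. The first femoral control has the lowest sum of both classes, 86.9 and 178 CPM, and the second WT LPS library has about as much H/ACA signal (1518 CPM) as the femoral KOKI pool lacking RAG2 and gamma c (1580 CPM).

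Within pairs of replicates, many snoRNA rows were shifted in the same direction. TMM scaling holds the median of other genes near no change. The medians therefore show a shared shift, and the spread of single genes was not compared. In the femoral controls the second library was higher than the first for 28 of 33 members under 100 bases (median ratio 1.92-fold), for 22 of 23 members of at least 100 and under 150 bases (2.79-fold) and for 4 of 4 members of 150 to 300 bases (2.39-fold), while the median of all other genes was 1.05-fold. In WT LPS the medians were 1.16-fold, 1.22-fold and 3.40-fold for the same length classes, against 0.978-fold for other genes. These ratios use CPM plus 0.1 and rows with at least 20 counts over both libraries. Within WT LPS, the ratio was 3.46-fold for Snord17, 3.35-fold for Snora23 and 2.66-fold for Snora78, but 1.19-fold for Snord104, 1.08-fold for Snord49a and 0.694-fold for Snora17. In KOKI LPS the second library was lower for 24 of 31, 17 of 21 and 4 of 4 members of the 3 length classes. In WT LPS+SAHA it was lower for 23 of 34, 11 of 21 and 4 of 4, and the femoral KOKI pool lacking RAG2 alone was lower than the other for 25 of 36, 20 of 22 and 3 of 4. Most members lay on the same side in the femoral controls, KOKI LPS and the femoral KOKI pools, while the members under 100 bases of WT LPS (23 higher and 14 lower) and those of middle length in WT LPS+SAHA were divided. The part of length in these differences was not tested.

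**Figure D3:**
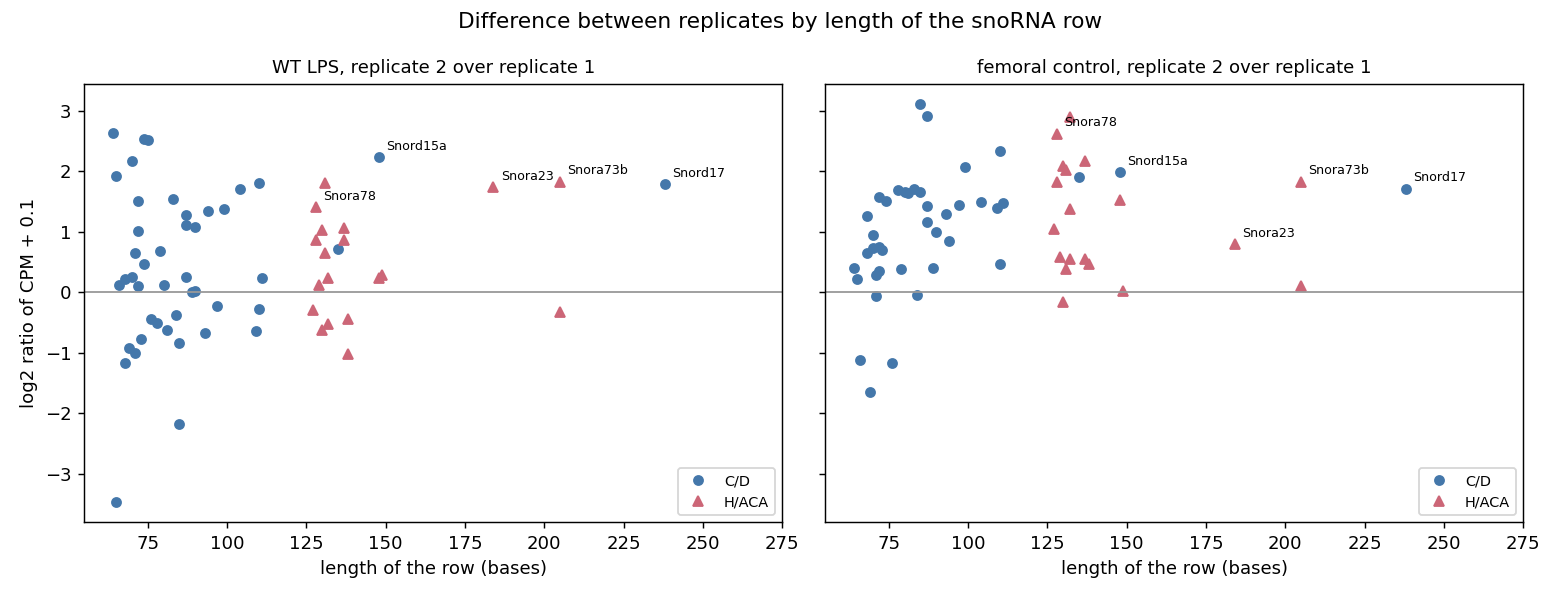
Log2 ratio of CPM + 0.1 of replicate 2 over replicate 1 against the length of the row in bases, for WT LPS (left) and the femoral controls (right), 1 point per member with at least 20 counts over both libraries, C/D as blue circles and H/ACA as red triangles. In WT LPS rows under 150 bases lie on both sides of 0, some of them at ratios above 3-fold, Snord17, Snora73b and Snora23 lie above 3-fold and Snora73a lies below 0. In the femoral controls nearly all rows lie above 0.

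The first comparison asks what the deacetylase inhibitor did to snoRNA rows in WT cultures with LPS. Of 65 members that passed the filter on low counts, 0 were called at an adjusted p under 0.05 (edgeR quasi-likelihood test, Benjamini-Hochberg adjustment over all genes), where 4.64% of all tested genes were called, 0.952% higher and 3.69% lower. At an unadjusted p under 0.05 there were 6 members, and DESeq2 called 2. The share of all genes was not set beside counts at an unadjusted p or from other fits, here and below. Those counts are therefore not read as results about the members. Members were also called with a block for replicate number, which is given with its limits in the last section. The log2 fold change was negative for 53 of the 65, with a median of −0.41 for C/D and −0.49 for H/ACA members, beside 0.02 for all genes. The median over both classes was −0.47, −0.28 without the second WT LPS library, where 38 of 64 were negative, and −0.70 without the first. Since the passing members exclude those too low to count, these medians describe the tested rows only.

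The lowest p belonged to Snord19, which lies in an intron of the nucleolar GTPase gene Gnl3. It had 8.68 and 6.36 CPM in WT LPS and 3.33 and 3.08 in WT LPS+SAHA. The libraries did not overlap. The log2 fold change was −1.20 ± 0.28 (SE) with an adjusted p of 0.0511 (edgeR), short of the threshold in this fit without a replicate block. Snora17 had 43.5 and 30.2 CPM in WT LPS and 25.1 and 11.5 with SAHA, again without overlap, and a log2 fold change of −0.99 ± 0.33 (edgeR adjusted p = 0.114). Snord4a had 1.87 and 3.01 CPM in WT LPS and 0.975 and 0.607 with SAHA, a log2 fold change of −1.61 ± 0.56 (edgeR adjusted p = 0.123). Snord17 stood at the other end with a log2 fold change of 0.63 ± 0.53 (edgeR adjusted p = 0.511), and Snora73b had 0.02 ± 0.55. Leaving out the first WT LPS library turned both of these to −0.011 and −0.62.

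Calls among the proteins of the particles and their assembly factors were in 1 direction under SAHA. Of 27 tested genes on that list, 7 fell and 0 rose, with a median log2 fold change of −0.52. They were the pseudouridine synthase Dkc1 (−0.85 ± 0.15, edgeR adjusted p = 0.031), its partner Nhp2 (−0.74 ± 0.13, adjusted p = 0.032), the H/ACA assembly factor Naf1 (−0.76 ± 0.15, adjusted p = 0.0384), the nucleolar chaperone Nolc1 (−0.75 ± 0.14, adjusted p = 0.0353), the ATPase Ruvbl1 (−0.85 ± 0.13, adjusted p = 0.0238), the C/D assembly factor Znhit3 (−0.70 ± 0.15, adjusted p = 0.0431) and the U3 particle protein Mphosph10 (−0.77 ± 0.14, adjusted p = 0.0328). Dkc1 had 284 and 231 CPM in WT LPS and 142 and 137 in WT LPS+SAHA. Of 15 host RNAs, 1 fell, Snhg5 (−0.88 ± 0.18, edgeR adjusted p = 0.0414), and 0 rose.

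Among the host genes of members, 9 of 79 tested fell and 0 rose. The largest fall was that of Rcc1, the exchange factor of Ran, which had 119 and 122 CPM in WT LPS and 57.1 and 57.3 with SAHA (log2 fold change −1.04 ± 0.12, edgeR adjusted p = 0.0185). Snora73b, assigned to Rcc1 as the more abundant gene spanning it, had a log2 fold change of 0.02. Rcc1 and Snora73b were thus 1.07 apart on the log2 scale. Snhg3, which also spans Snora73b, had 173 and 97.5 CPM in WT LPS and 97.1 and 47.5 with SAHA. Snx5 and its member Snord17 were 1.19 apart, at −0.56 (edgeR adjusted p = 0.0892) and 0.63. Over 59 pairs of members and hosts, 45 shared a sign.

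Values that moved with SAHA are given here, and their part in the snoRNA rows was not tested. Proliferation markers (5 genes) summed to 2102 and 2013 CPM in WT LPS and to 955 and 1045 with SAHA. Olfactory receptor rows with at least 1 count, of 1292, numbered 46 and 47 in WT LPS and 126 and 451 with SAHA. At the density of counts over those rows, a row of 100 bases would hold 0.0868 counts in the second SAHA library and less in the other 9. This density does not measure reads from introns of expressed host genes.

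The second comparison sets KOKI LPS against WT LPS. Of 65 tested members 0 were called (edgeR adjusted p under 0.05), beside 4.08% of all genes, 2.25% of them higher and 1.83% lower. At an unadjusted p under 0.05 there were 17, and DESeq2 called 3. Without the first WT LPS or the first KOKI library edgeR called 1 member, and without the first or the second SAHA library 2, all lower. Negative log2 fold changes were seen in 56 of the 65, with a median of −0.80 for C/D and −0.62 for H/ACA members and −0.02 for all genes. The median over both classes was −0.63, −0.32 without the second WT LPS library, with 19 of 64 positive, −0.95 without the first and −1.01 without the first KOKI library.

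Snord104, 1 of the 3 C/D members with no host by the annotated spans, had 28.6 and 34.1 CPM in WT LPS and 14.6 and 15.2 in KOKI LPS. The groups were well apart and the replicates close, with a log2 fold change of −1.05 ± 0.30 and an adjusted p of 0.111 (edgeR). Snord73a had 3.02 and 3.53 CPM in WT LPS and 0.495 and 1.08 in KOKI LPS, a log2 fold change of −2.05 ± 0.55 (edgeR adjusted p = 0.0942). Snora69 had 3.45 and 5.47 CPM against 1.65 and 1.94, a log2 fold change of −1.29 ± 0.40 (edgeR adjusted p = 0.135). Without the first or the second SAHA library, which are in the fit but not in this contrast, Snord104 was called, at adjusted p-values of 0.00752 and 0.00962 (edgeR). Against WT LPS+SAHA, the comparator that the treatment field would ask for, 3 members were called, 2 lower and 1 higher, and Snord104 was at −0.99 (adjusted p = 0.0477) and Snord17 at −1.81 (adjusted p = 0.0469, edgeR).

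For the 2 dominant rows the direction of this comparison rested on 1 library. Snora73b was at −0.63 ± 0.55 (edgeR adjusted p = 0.636) and at 0.58 without the second WT LPS library. Snord17 was at −1.18 ± 0.54 (adjusted p = 0.312) and at 0.0045 without it. The particle proteins showed 0 called of 27, with a median of −0.04 and 1 gene at an unadjusted p under 0.05. Host genes of the members had a median of −0.04, and 1 was called, AA465934, which was higher (1.74 ± 0.18, edgeR adjusted p = 0.00195). Of the 59 pairs, the median was −0.63 for members and −0.03 for hosts, and 30 shared a sign. Snhg17 fell (−0.71 ± 0.14, edgeR adjusted p = 0.035), as the 1 host RNA called of 15, of which 14 were negative, with a median of −0.83 and 8 at an unadjusted p under 0.05. Plasmablast markers (5 genes) summed to 543 and 554 CPM in WT LPS and to 1239 and 1095 in KOKI LPS, and their part in the snoRNA values was not tested.

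The third comparison sets the femoral KOKI pools against the femoral controls. Of 64 tested members 0 were called (edgeR adjusted p under 0.05), in a fit that called 0.0301% of all genes. At an unadjusted p under 0.05 there were 24 members, and DESeq2 called 9, all higher. The 0.0301% is no measure for these counts, which use another threshold or test. The log2 fold change was positive for 40 of 44 C/D members, with a median of 1.05, and for 20 of 20 H/ACA members, with a median of 1.23, beside −0.02 for all genes. The median over both classes was 1.15, 2.02 without the second control and 0.77 without the first, where 14 of 66 were negative. It was 1.29 with only the KOKI pool lacking RAG2 and gamma c, in a fit of all 10 libraries. That pool matches the controls in gamma c, and the pool lacking RAG2 alone does not. The count of calls rose when either control or the KOKI pool lacking RAG2 alone was left out. Each such fit leaves a group without a replicate, so those counts are not read here.

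Snord104 had 4.01 and 7.80 CPM in the controls and 23.5 and 21.8 in the KOKI pools, without overlap (log2 fold change 1.95 ± 0.31, edgeR adjusted p = 0.0922). Snord83b, in an intron of Rpl3, had 1.89 and 3.47 CPM in the controls and 12.1 and 11.0 in the KOKI pools (2.12 ± 0.35, edgeR adjusted p = 0.0933). Snora78 had 2.12 and 13.6 CPM in the controls and 98.3 and 50.8 in the KOKI pools (3.26 ± 0.70, edgeR adjusted p = 0.118). All 3 were called without either control, with log2 fold changes of 1.57 and 2.49 for Snord104, 1.76 and 2.60 for Snord83b, and 2.48 and 5.12 for Snora78. The last was also called without the KOKI pool lacking RAG2 alone, at 3.68 (edgeR adjusted p = 0.022). With 1 control left, the spread rests on the 2 KOKI pools, and the lone control is assumed to vary like them.

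Not every member was higher in the KOKI pools. Snord19 had 4.59 and 1.99 CPM in the controls and 3.20 and 3.45 in the KOKI pools, a log2 fold change of 0.01 ± 0.47. The members with negative values were Snord7 (−0.55), Snord71 (−0.26), Snord98 (−0.19) and Snord11 (−0.05), named after their values were seen. The particle proteins showed 0 called of 27 with a median of 0.05, and 7 at an unadjusted p under 0.05. Host RNAs were positive in 12 of 13 with a median of 1.21, and 0 were called, with 11 at an unadjusted p under 0.05. Over 58 pairs the median was 1.05 for members and 0.18 for hosts, and 42 shared a sign. Proliferation markers summed to 4764 and 3352 CPM in the controls and 2506 and 2149 in the KOKI pools, without overlap. The single markers did not move together. Mki67 (3406 and 2088 against 1361 and 1080 CPM) and Top2a (1039 and 950 against 778 and 718) were lower in the KOKI pools. Ccnb1 (111 and 117 against 135 and 131) and Cdk1 (92.7 and 112 against 130 and 123) were higher, and Birc5 overlapped. The part of these markers in the snoRNA values was not tested.

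**Figure D4:**
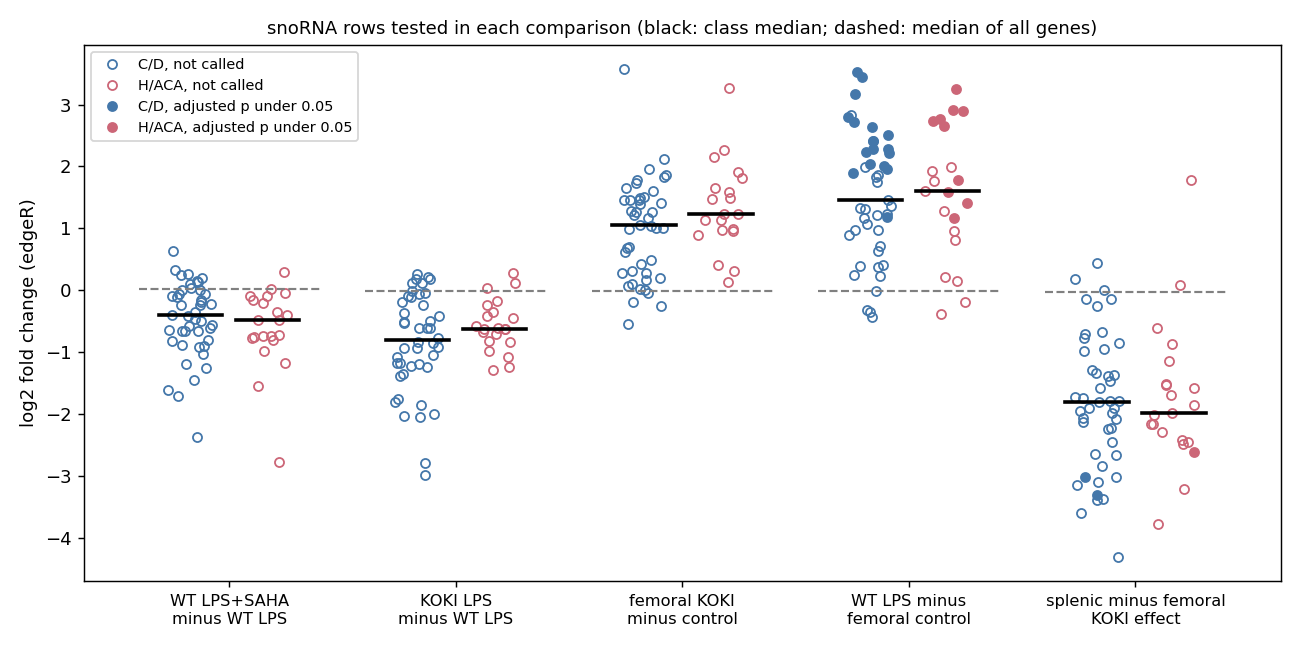
Log2 fold change (edgeR) of every tested snoRNA row in the 5 comparisons, C/D in blue and H/ACA in red, open where not called and filled at an adjusted p under 0.05. Black bars are class medians and the dashed line is the median of all genes. Class medians lie below 0 for SAHA and KOKI in the spleen and above 1 in the femoral comparison with 0 filled points, and the 28 filled points of WT LPS minus femoral control all lie above 0.

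The fourth comparison sets WT LPS against the femoral controls. Tissue, culture, genotype and the mixture of cells differ between them at once and cannot be told apart. Of 66 tested members 28 were called, all higher in WT LPS, 18 of class C/D and 10 of class H/ACA. Over all genes 42.4% were called, 21.1% higher and 21.3% lower, so the share of members called was that of the table, while the calls were in 1 direction. The median log2 fold change was 1.46 for C/D and 1.61 for H/ACA members. It was −0.02 for all genes, and −0.38 with library totals in place of TMM, where 20 members stayed called and all 20 were higher. Without the second WT LPS library 15 were called, without the first femoral control 18, all higher.

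Snora41 had 9.32 and 11.0 CPM in WT LPS and 0.843 and 1.27 in the femoral controls (log2 fold change 3.26 ± 0.39, edgeR adjusted p = 3.75e-05). Snora17 had 43.5 and 30.2 CPM against 2.67 and 7.09 (2.92 ± 0.45, edgeR adjusted p = 2.81e-04). Snora78 had 32.1 and 85.5 CPM against 2.12 and 13.6 (2.90 ± 0.68, edgeR adjusted p = 0.00469). In each of the 3 both WT LPS libraries lay above both controls.

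Snora57 had 19.2 and 22.7 CPM in WT LPS and 1.54 and 4.62 in the controls (2.77 ± 0.50, edgeR adjusted p = 9.38e-04). Snora69, in the ribosomal protein gene Rpl39, had 3.45 and 5.47 CPM against 0.203 and 1.13 (2.74 ± 0.70, edgeR adjusted p = 0.00762). The groups were apart in both.

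Among C/D members, Snord110 of the Nop56 gene, which encodes a core protein of its own class of particle, had 10.0 and 4.43 CPM against 0.494 and 0.830 (3.44 ± 0.67, edgeR adjusted p = 0.00148). Snord69 of Gnl3 had 5.11 and 5.54 CPM against 0.232 and 0.949 (3.16 ± 0.74, edgeR adjusted p = 0.00449). Snord72 of Rpl37 had 9.54 and 6.18 CPM against 0.494 and 1.75 (2.80 ± 0.57, edgeR adjusted p = 0.00187). These groups did not overlap either.

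Snord88c had 25 and 29 counts in WT LPS and 0 and 6 in the controls, a fitted log2 fold change of 3.52 ± 1.08 that depends on the prior count (edgeR adjusted p = 0.0201). Snord4a of Rpl23a had 1.87 and 3.01 CPM against 0.320 and 0.415 (2.72 ± 0.70, edgeR adjusted p = 0.00795). Snord17 was also called (2.63 ± 0.62, edgeR adjusted p = 0.00462), and Snora73b was not (1.61 ± 0.63, adjusted p = 0.0573).

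The other 17 called members had log2 fold changes of 1.17 (Snora33) to 2.65 (Snora62), among them the row Snora26 that is not a single snoRNA.

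Calls of 5 of the members named above were lost without the second WT LPS library: Snora78 (2.03, adjusted p = 0.0525), Snora69 (2.37, 0.0534), Snord4a (2.33, 0.0599), Snord17 (1.48, 0.0713) and Snord88c (3.51, 0.0558), each an edgeR log2 fold change and adjusted p. Snord88c was also lost without the first WT LPS library (adjusted p = 0.0595), and it and Snord4a were lost without the first femoral control (0.0819 and 0.0517). Snora73b became called without the first WT LPS library (2.20, adjusted p = 0.0173) and without the second femoral control (2.69, adjusted p = 0.0147).

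Of the 66 tested members 6 had negative values. The lowest was Snord89 (−0.44), and Snord8 was at −0.32 and Snora19 at −0.20. Snora31 had 7.11 and 4.61 CPM in WT LPS and 8.05 and 7.23 in the controls (−0.38 ± 0.31, edgeR adjusted p = 0.345). Snord15a was at −0.35 ± 0.70 and Snord118 at −0.02 ± 0.49, and Snora23 was just positive at 0.15 ± 0.47, none of them called. Snord15a, Snord118 and Snora23 are among the rows with the most reads per length, and their intervals are wide.

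Host genes were called mostly in the same direction. Of 79 tested hosts 59 rose and 1 fell, the microtubule gene Ckap5 (−0.54 ± 0.18, edgeR adjusted p = 0.0338). Of 15 host RNAs 10 rose and 0 fell, among them Snhg3 (3.14 ± 0.37, edgeR adjusted p = 3.28e-05), Snhg4 (2.91 ± 0.28, adjusted p = 7.19e-06) and Snhg1 (2.64 ± 0.31, adjusted p = 3.64e-05). Of 27 particle proteins and assembly factors 23 rose and 0 fell. The methyltransferase Fbl rose by 1.39 ± 0.17 on the log2 scale (edgeR adjusted p = 5.39e-05), the C/D core protein Nop58 by 1.82 ± 0.24 (adjusted p = 9.46e-05), the H/ACA core protein Nop10 by 2.06 ± 0.28 (adjusted p = 1.19e-04), and the U3 particle protein Rrp9 by 2.45 ± 0.18 (adjusted p = 7.69e-07).

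Side by side, 55 of 60 members shared the sign of their host, with a median of 1.53 for members and 1.38 for hosts. Spearman's rho across the 60 pairs was 0.521. Pairs share libraries, and 49 hosts stand behind the 60 pairs, so this is a description. Members of 1 host could differ: Snord69 was at 3.16 and Snord19 at 1.19, both in introns of Gnl3 (1.73). Snord15a was 1.92 below its host Rps3 (1.57), and Snord110 was 2.28 above Nop56 (1.16).

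**Figure D5:**
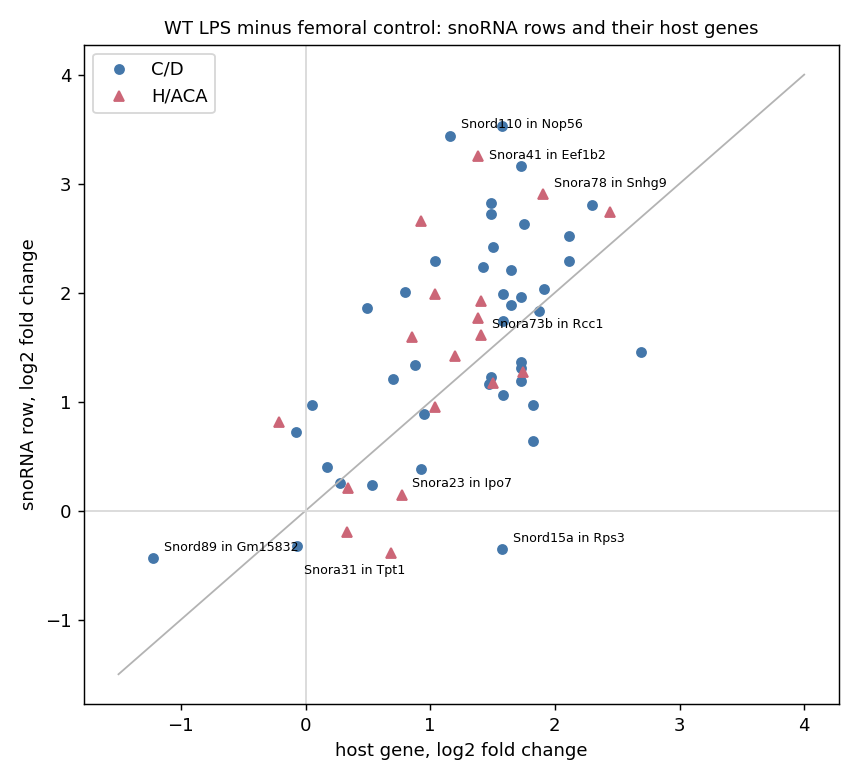
Log2 fold change (edgeR), WT LPS minus femoral control, of 60 snoRNA rows against that of their host gene, C/D as blue circles and H/ACA as red triangles, with the line of equality in grey. Of the 60 rows 55 lie in a quadrant where both share a sign, and Snord15a in Rps3 (−0.35 against 1.57) lies far below the line while Snord110 in Nop56 (3.44 against 1.16) lies far above it.

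Small RNAs of related build outside the rule were compared with these. Among 7 tested rows of small Cajal body RNAs, Scarna2 and Scarna6 rose in WT LPS against the femoral controls, and 0 were called in the SAHA, KOKI and femoral KOKI comparisons. Scarna13 ran from 105 to 477 CPM over the 10 libraries and was highest in the femoral KOKI pools (477 and 422). Terc, the telomerase RNA, which carries an H/ACA domain, had 36.3 CPM in the first KOKI LPS library and 3.23 to 14.7 in the other 9.

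The last test asked whether the KOKI effect differed between spleen and femur, as (KOKI LPS minus WT LPS) minus (mean of the femoral KOKI pools minus femoral control). It shares its libraries with the comparisons above. The femoral KOKI pool lacking RAG2 alone also differs from the femoral controls in gamma c. Of 66 tested members 3 were called, all with the splenic effect lower than the femoral one, beside 0.846% of all genes, 0.416% higher and 0.431% lower. At an unadjusted p under 0.05 there were 27 members, and DESeq2 called 7. Snord104 had the lowest p, with a difference of −3.02 ± 0.50 on the log2 scale (edgeR adjusted p = 0.0206). It stood at 31.4 ± 3.89 CPM in WT LPS, 14.9 ± 0.439 in KOKI LPS, 5.90 ± 2.68 in the femoral controls and 22.7 ± 1.22 in the femoral KOKI pools (SD, n = 2 each).

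Snord83b had 13.1 ± 8.08 CPM in WT LPS, 5.70 ± 1.11 in KOKI LPS, 2.68 ± 1.12 in the femoral controls and 11.6 ± 0.756 in the femoral KOKI pools (SD, n = 2 each), a difference of effects of −3.30 ± 0.63 (edgeR adjusted p = 0.0367). Snora41, in an intron of the elongation factor gene Eef1b2, had 10.1 ± 1.17, 5.56 ± 0.836, 1.06 ± 0.305 and 3.70 ± 1.25 CPM in the same order, a difference of −2.62 ± 0.52 (edgeR adjusted p = 0.0437). Their hosts did not show it: Rpl3 was at −0.09 and Eef1b2 at −0.06, and Snord104 has no host by the annotated spans. Of the 15 host RNAs tested, 4 were lower in this test, Snhg12 (−2.16), Snhg17 (−1.47), Snhg20 (−1.90) and Snhg3 (−2.66), and of 27 particle proteins 0 were called, with 6 at an unadjusted p under 0.05.

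None of the 3 calls was stable to the loss of a library. Without the second WT LPS library, either KOKI LPS library or the first femoral control, 0 members were called, with adjusted p-values for Snord104 of 0.0932, 0.0999, 0.104 and 0.0571 (edgeR). Without the second femoral control 12 were called, and without the first or second SAHA library 5 and 6. Without either femoral KOKI pool 1 was called. The direction of the 3 was kept in each of these fits, at −2.62 to −3.04 for Snord104 where its call was lost.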

How the data were processed

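The deposited table holds raw counts of reads per gene for 10 libraries, as the authors made them, with no scaling. STAR 2.4.0a, featureCounts, Subread 1.4.6-p1 and the build mm10 (GRCm38) are named per the submitters' processing notes. How strand and multiply matching reads were handled is not given in the sources used here. The 100 spike-in and phiX rows (1 to 17 counts per library) were left out.

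Tests used edgeR 4.0.16 in R 4.3.3: TMM scaling, filterByExpr (minimum count 10, minimum total 15), the quasi-likelihood F test on all genes, and Benjamini-Hochberg adjustment, with calls at an adjusted p under 0.05. The SAHA and KOKI comparisons came from the 6 splenic libraries in 3 groups, the femoral one from the 4 femoral libraries, and the remaining 2 from all 10 libraries in 6 groups, which assumes that groups of 1 library vary like the rest. The SE is the log2 fold change divided by the root of F. CPM and RPKM were computed here with TMM library sizes of all 10 libraries. A host is the non-member gene on the same strand whose span holds the member, the most abundant where there were several.

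The members, gene lists and tests were chosen with earlier results of these data known. Named are the called members with the 10 largest changes in each direction or, with none called, the 3 of lowest p, the 10 most abundant members of each class, a list of well-known members, their hosts, and called genes of the particle protein and host RNA lists. The labels do not say that replicates are separate animals, so p-values measure only how these samples spread, which may be technical. In no pair of replicates did counts agree within sampling noise (chi-square per degree of freedom 44.1 to 161). The script was checked on simulated counts. Alternatives were other scalings, DESeq2 1.42.0, no filter, other sets of libraries, a replicate block and leaving out each library. A marker gene and a host gene are not reported here. Counting error alone limits rows with few counts, and the reads carry no molecular identifiers.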

Additional observations from a re-analysis of the deposited data

Results flagged for a closer look

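For 3 members the KOKI effect was called different between the splenic cultures and the femoral pools, by the test of the difference itself (edgeR adjusted p under 0.05, all 10 libraries). The difference, splenic minus femoral effect on the log2 scale, was −3.02 for Snord104, −3.30 for Snord83b and −2.62 for Snora41. All 3 calls were lost without the second WT LPS library, either KOKI LPS library or the first femoral control. In all 3 the splenic KOKI libraries lay below the WT LPS libraries and the femoral KOKI pools above the femoral controls. The splenic and femoral libraries differ in tissue, culture, genotype (RAG2 and gamma c) and cell mixture, which cannot be told apart here, and the KOKI cultures carry conflicting labels on SAHA. Within the femoral effect, the KOKI pool lacking RAG2 alone also differs from the controls in gamma c.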

How the results depend on the processing

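Over the 5 counts of called members, 36 alternatives kept the count within 1.5 times and 31 moved it. For WT LPS+SAHA against WT LPS, 0 members became 2 with DESeq2 and 5 without the filter, and 0 without any 1 library. For KOKI LPS, 0 became 1 with library totals, 3 with DESeq2, 11 without the filter, 2 with the 4 compared libraries alone and 3 against WT LPS+SAHA, and 0 to 2 without 1 library. For the femoral KOKI pools, 0 became 9 with DESeq2 and 15 without the filter, and the count also moved without 1 library. For WT LPS against femoral control, 28 became 24 with RLE factors and 15 to 28 without 1 library. For the difference between the KOKI effects, 3 became 7 with DESeq2 and 20 without the filter, and 0 to 12 without 1 library. The causes of these moves were not tested. The share of all genes called in each alternative is not given here, so these counts are not read as results about the members.

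Signs reversed in 6 cases, all for the 2 dominant rows. For SAHA, Snora73b turned to −0.62 without the first WT LPS library, −0.26 without the first SAHA library and −0.0027 without the second KOKI library, and Snord17 to −0.011 without the first WT LPS library. Over all libraries left out in turn these 2 ran from −0.62 to 1.22 and from −0.011 to 1.79. For KOKI LPS, Snora73b turned to 0.58 and Snord17 to 0.0045 without the second WT LPS library, and their ranges were −1.28 to 0.58 and −1.82 to 0.0045. Their replicates differed up to 3.56-fold in WT LPS.

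Replicate numbers of the labels pair the samples only by number, and no label says that WT 1 or WT 2 is 1 animal split between cultures. With a replicate block, 7 members were called for SAHA (6 lower and 1 higher, including Snord19 and Snora17), 5 for KOKI LPS, all lower, and 24 for WT LPS against femoral control. The share of all genes called with a block is not given here, so these counts are not read as results about the members. Deviations of same-numbered libraries correlated at 0.483 over 12704 genes between WT LPS and WT LPS+SAHA, at 0.135 between WT LPS and KOKI LPS and at −0.043 between WT LPS and the femoral controls. No paired analysis was possible because the femoral KOKI groups hold 1 library each, for the femoral comparison and the difference of effects. RLE factors shifted the median of all genes to −0.17 for WT LPS against femoral control. Library totals shifted the median of all genes to 0.12 for SAHA, −0.18 for the femoral comparison and −0.38 for WT LPS against femoral control, and no filter or DESeq2 to 0.54 and 0.59 for SAHA. Rows with under 20 counts over all libraries (5 of 73) are limited by depth.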
